A study of Homo sapiens with 12 samples.

Results

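The respiratory chain is built from proteins of both genomes of the cell, and the messages from the 2 genomes moved apart when MOLT4 cells were exposed to a kinase inhibitor or to a conjugate made from it. Members were the protein-coding genes whose symbol begins with NDUF (complex I), SDH (complex II), UQCR (complex III), COX and a digit (complex IV) or ATP5 (complex V, the ATP synthase), together with the 13 protein genes of the mitochondrial chromosome. The authors' deposited table listed 55 of them among its 5759 genes, namely 42 of the 109 nuclear genes that the symbols select and 13 of the 13 mitochondrial genes. The other 67 nuclear genes are not analysed here. By complex, the listed nuclear genes numbered 19 of 46 for complex I, 4 of 8 for complex II, 4 of 9 for complex III, 9 of 26 for complex IV and 6 of 20 for complex V, and 8 of the 42 encode assembly factors and not subunits.

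RNA was sequenced from 12 samples of MOLT4, an established T lymphoblast line from acute lymphoblastic leukaemia, in 4 groups of 3. One group received the vehicle DMSO for 6 h. Compound 955 was given at 0.1 µM, to one group for 1 h and to another for 6 h, and the last group had 1 µM SNS-032 for 6 h. SNS-032 inhibits cyclin-dependent kinases, among them CDK9, which releases paused RNA polymerase II, and 955 joins it as warhead to piperlongumine, an electrophile from pepper plants. The study set 955 beside its warhead to examine efficacy and specificity. No label says that the 3 samples of a group were separate cultures, so the p-values measure only the spread between these samples, which may be technical. Each treated group was compared with the same DMSO samples, which were taken at 6 h, so with 955 at 1 h the treatment and the time in culture cannot be told apart. The doses of the compounds differ as well, so a difference between them cannot be told apart from a difference of dose.

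Complexes I, III and IV pass electrons from nutrients to oxygen and pump protons across the inner mitochondrial membrane, complex II feeds electrons in from succinate, and the ATP synthase uses the proton gradient to make ATP. Every complex except complex II combines subunits of nuclear and mitochondrial origin. Nuclear genes are read by RNA polymerase II, whereas the mitochondrial chromosome is transcribed inside the organelle by its own polymerase, POLRMT, into long RNAs of each strand that are then cut into single messages and ribosomal RNAs.

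The authors' deposited table gives for each gene a log2 fold change against DMSO and its false discovery rate (FDR), and no value of a single sample. The threshold used here is an FDR below 0.05 together with a log2 fold change of 1 or more in either direction. An implied standard error was derived by dividing the size of the log2 fold change by the root of the deposited F statistic. Genes are in the table because they changed somewhere, and 55 of the 55 members met both bounds in at least 1 comparison, so counts of members past the threshold are descriptions of a list chosen on these comparisons. The mitochondrial genes were listed at 100% and the nuclear ones at 38.5%, against 26.3% of the 20056 protein-coding genes in RefSeq.

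Of the cell type markers examined, the authors' deposited table listed 10 of 26 T lymphoblast genes at average levels between 4.75 (CD2) and 10.1 (ZAP70) log2 CPM over all samples. It listed 2 of 7 B cell genes, among them CD79A at 3.94 log2 CPM, and 0 of 7 myeloid and 0 of 6 erythroid genes. A marker outside the list may be absent or may have stayed below the threshold, so its level is not known from these values.

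The mitochondrial messages came from tightly packed genes, some of which share bases. ATP8 and ATP6 overlap by 46 bases, ND4L and ND4 by 7 and ATP6 and COX3 by 1 base in RefSeq, so reads over these bases cannot be assigned to 1 message. The stretch shared by ATP8 and ATP6 (GRCh38, chrMT:8527-8572, plus strand) is shown because both genes are members of the same complex, with the start codon of ATP6 in capitals.
ATP8 and ATP6: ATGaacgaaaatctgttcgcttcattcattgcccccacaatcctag

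At 6 h all 13 mitochondrial messages were higher than in DMSO with either compound, whichever complex they serve. Their log2 fold changes in the authors' deposited table ran from 1.90 to 2.34 with 955 (median 2.07) and from 2.25 to 2.59 with SNS-032 (median 2.35). These are directions under the authors' scaling, and they held when each comparison was centred on the listed genes that are not members, which raised the medians to 3.10 and 3.42. By construction no direction remained when the comparisons were centred on these 13 messages, with 6 above 0 and 6 below. Past the threshold and higher were 100% of the mitochondrial members in both comparisons, against 35.2% of all listed genes with 955 and 37.8% with SNS-032. Implied standard errors ran from 0.10 to 0.28 in both comparisons, small beside changes of this size. RNA was pooled from all cells of a sample, so a change per cell and a change in the make-up of the cells cannot be told apart.

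**Figure D1:**
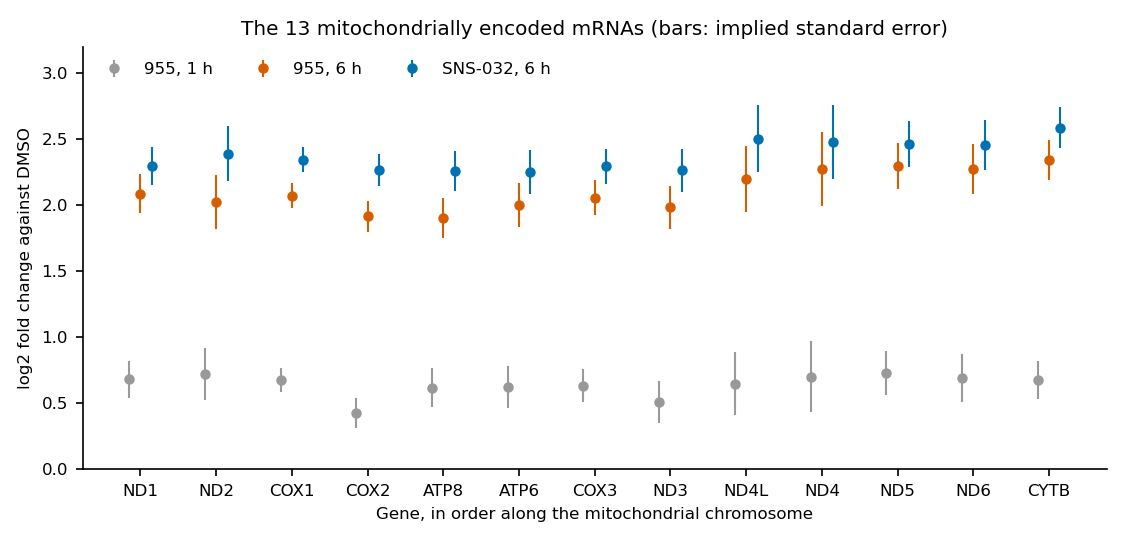
Log2 fold change against DMSO (vertical axis) of the 13 mitochondrially encoded mRNAs, in their order along the mitochondrial chromosome (horizontal axis). Points are the authors' deposited values for 955 at 1 h (grey), 955 at 6 h (orange) and SNS-032 at 6 h (blue), and bars are 1 implied standard error. The 1 h values lie between 0.42 and 0.73 and the 6 h values between 1.90 and 2.59, on the authors' scaling; centred on these messages themselves the values would have no common direction.

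Complex I takes 7 of its subunits from the mitochondrial chromosome, and they form part of its proton-pumping membrane arm. ND1 (gene ID 4535, chrMT:3307-4262) had log2 fold changes in the authors' deposited table of 0.68 after 1 h of 955, 2.09 after 6 h of 955 and 2.30 after SNS-032, or 4.25-fold and 4.92-fold at 6 h. ND2 had 0.72, 2.02 and 2.39 in the same table, and ND3 had 0.51, 1.98 and 2.26. With either compound, these 3 differed from each other at 6 h by less than their implied standard errors of 0.14 to 0.21.

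ND4L had 0.65, 2.20 and 2.51 in the authors' deposited table, and its overlapping neighbour ND4 had 0.70, 2.27 and 2.48. ND5 had 0.73, 2.30 and 2.46 there. ND6, the only message made from the other strand, had 0.69, 2.27 and 2.46, close to the other mitochondrial messages of complex I. Use of strand in counting is not given, so its values may include reads from the opposite strand.

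The remaining messages serve the other complexes. CYTB (gene ID 4519, chrMT:14747-15887), the haem-bearing core of complex III, had the highest mitochondrial values at 6 h, which in the authors' deposited table were 2.34 with 955 and 2.59 with SNS-032, after 0.68 at 1 h. COX1, the catalytic subunit of cytochrome oxidase, had 0.67, 2.07 and 2.35 in the authors' deposited table. COX2, which receives electrons from cytochrome c, had 0.42, 1.92 and 2.27 there, and COX3 had 0.63, 2.06 and 2.30. ATP6, the proton channel of the ATP synthase, had 0.62, 2.0 and 2.25 in the authors' deposited table, and ATP8 had 0.62, 1.90 and 2.26. COX2 and ATP8 were the lowest of the 13 with 955 at 6 h.

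Along the chromosome the values fell into a lower and a higher stretch. The 5 genes from ND4L to CYTB had values in the authors' deposited table of 2.20 to 2.34 with 955 at 6 h and 2.46 to 2.59 with SNS-032, and the 8 genes from ND1 to ND3 had 1.90 to 2.09 and 2.25 to 2.39. The stretches do not overlap in either comparison, with medians of 2.27 against 2.01 (955) and 2.48 against 2.28 (SNS-032), but implied standard errors of single genes reached 0.28. These stretches were chosen after the values were seen, both comparisons share the DMSO samples, and the difference was not tested. At 1 h the same stretches overlapped, at 0.65 to 0.73 and 0.42 to 0.72.

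RNAs of the mitochondrial chromosome that encode no protein were close to the messages. The ribosomal RNAs RNR1 and RNR2 had log2 fold changes in the authors' deposited table of 2.20 and 2.13 with 955 at 6 h, and of 2.49 and 2.45 with SNS-032. The transfer RNA gene TRNP had 2.03 and 2.22 there. Libraries were made with an mRNA kit and use of strand is not given. Whether the reads of TRNP came from the transfer RNA itself is therefore not known. By the average level over all samples, the 13 messages together took up 15.5% of the counts and the 42 nuclear members 0.321%, shares of reads that are not corrected for length.

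With 955 at 1 h the 13 mitochondrial messages had values above 0 under the authors' scaling, though none reached the fold-change bound. Log2 fold changes ran from 0.42 (COX2) to 0.73 (ND5) in the authors' deposited table, with a median of 0.67, while all listed genes had a median of -0.05. The FDR was under 0.05 for 8 of the 13, which were ND1, ND5, CYTB, COX1, COX2, COX3, ATP6 and ATP8, against 16.6% of all listed genes, and their FDR ran from 6.95e-05 (COX1) to 0.0446 (ATP6). For ND2, ND3, ND4, ND4L and ND6 it ran from 0.0504 to 0.282. Past both bounds were 0 of 13, against 8.44% of all listed genes.

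The list holds only genes that changed somewhere, so a nuclear gene that stayed near its DMSO level throughout could not be in it. At 6 h the listed nuclear members went in both directions. By the authors' deposited table, 10 were higher and 23 lower with 955 past the threshold, or 23.8% and 54.8% of the 42, against 35.2% and 50.1% of all listed genes (85.3% in either direction). With SNS-032, 17 were higher and 21 lower, or 40.5% and 50.0%, against 37.8% and 52.5% (90.2% in either direction). These shares are near the background. Their medians, -1.06 with 955 and -0.99 with SNS-032, were also near those of all listed genes, -1.03 and -1.07.

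Both comparisons share the DMSO samples, so their directions are not independent. Of the 42, 17 had values above 0 and 25 below 0 with either compound. Past the threshold with both were 10 higher and 19 lower members. ATP5MF, ATP5MG, COX6A1, COX7C, NDUFB2, NDUFV1 and UQCRB were past it, higher, with SNS-032 and not with 955. ATP5PO, COX10, COX15 and NDUFC2 were past it, lower, with 955 and not with SNS-032, and COX14 and NDUFS1 the reverse. A call in 1 comparison and not in the other is no test of a difference, and for these 13 genes the tested difference between the compounds did not pass the threshold.

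The split depends on the scaling. Among nuclear members past the threshold, the higher ones made up 30.3% with 955 and 44.7% with SNS-032 under the authors' scaling. Centring each comparison on the median of the listed genes that are not members, a shift of -1.03 and -1.07, gave 17 higher and 5 lower with 955 (77.3%) and 17 higher and 6 lower with SNS-032 (73.9%). Centring on the mitochondrial messages, a shift of 2.07 and 2.35, gave 0 higher and 34 lower, and 0 higher and 37 lower. Which nuclear genes lie above which others does not depend on the scaling, nor does the distance between nuclear and mitochondrial genes.

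**Figure D2:**
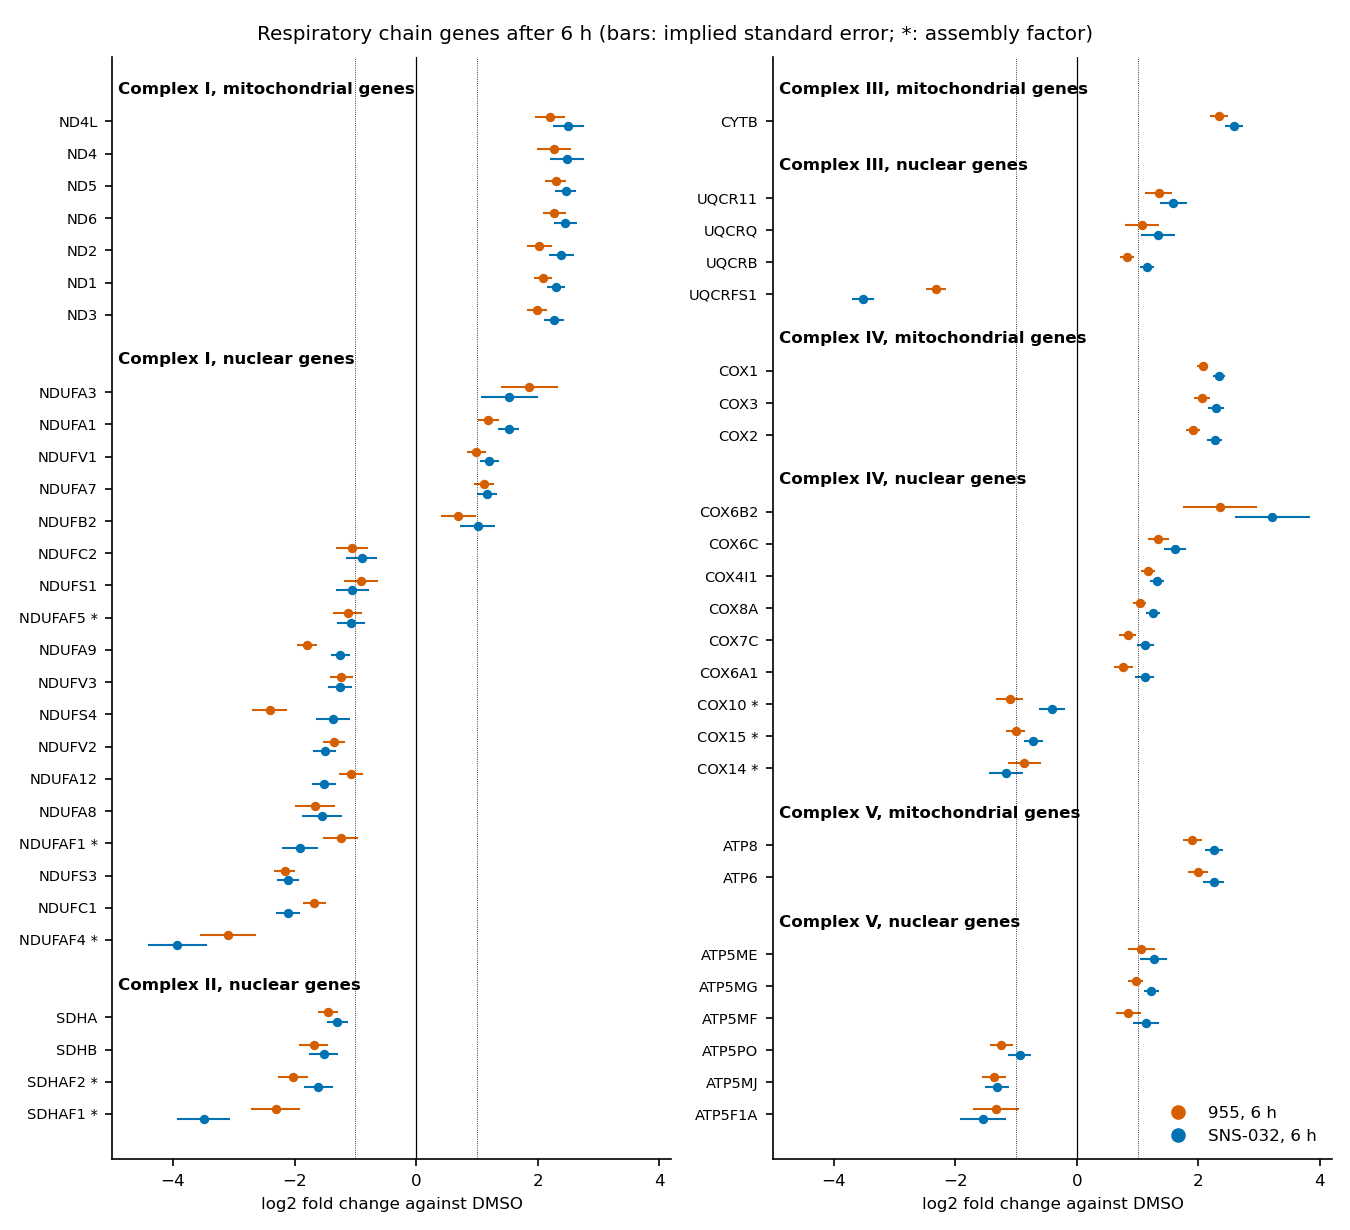
Log2 fold change against DMSO (horizontal axis) of the members described here after 6 h of 955 (orange) or SNS-032 (blue), grouped by complex and genome. Points are the authors' deposited values, bars are 1 implied standard error, dotted lines mark log2 fold changes of 1 and -1, and asterisks mark assembly factors. The mitochondrial genes lie together between 1.90 and 2.59 and the nuclear genes lie on both sides of 0, a position that the scaling sets: centred on the mitochondrial messages, all nuclear genes but COX6B2 lie below 0.

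Complex I oxidises NADH. Of its 19 listed nuclear genes, 3 were higher and 13 lower with 955, against a background of 35.2% higher and 50.1% lower. With SNS-032, 5 were higher and 13 lower, against 37.8% and 52.5%. NDUFA3 (gene ID 4696), an accessory subunit, rose in the authors' deposited table by 1.86 with 955 and 1.53 with SNS-032 (implied standard error 0.47 in both, FDR 0.00300 and 0.0131). Its average level was only 0.99 log2 CPM. NDUFA1 (4694), an accessory subunit of the membrane arm, rose by 1.19 and 1.52 in the same table, 2.27-fold and 2.87-fold. Centred on the mitochondrial messages, NDUFA3 and NDUFA1 lay below 0 with both compounds, at -0.21 and -0.89 for 955 and at -0.81 and -0.82 for SNS-032. NDUFA7 had 1.11 and 1.17, NDUFV1, which holds the NADH-binding site, 0.99 and 1.21, and NDUFB2 0.70 and 1.01 in the authors' deposited table.

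The largest falls in complex I were in NDUFAF4 (29078), an assembly factor, in the authors' deposited table at -3.09 with 955 and -3.93 with SNS-032, which leaves 0.118 and 0.0657 of the DMSO level. NDUFS4 (4724), a small subunit of the electron-transfer arm, fell as well, with -2.41 for 955 and -1.36 for SNS-032 there. Of the core subunits, NDUFS1, NDUFS3 and NDUFV2 had values in the authors' deposited table of -0.91, -2.17 and -1.35 with 955 and -1.05, -2.11 and -1.50 with SNS-032. The accessory subunits NDUFA8, NDUFA9, NDUFA12, NDUFC1, NDUFC2 and NDUFV3 ranged from -1.79 (NDUFA9) to -1.05 (NDUFC2) with 955 and from -2.12 (NDUFC1) to -0.89 (NDUFC2) with SNS-032. NDUFS1, NDUFS3 and NDUFV2, core subunits of the electron-transfer arm, thus lay below 0 under the authors' scaling, while NDUFV1 lay above. The median listed gene lay below 0 as well, at -1.03 (955) and -1.07 (SNS-032). NDUFS1 was slightly above that median with both compounds. NDUFV2 was less than 1 below it and NDUFS3 more than 1 below it with both. With 955 the accessory subunits of that range were also less than 1 below it.

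Complex II, succinate dehydrogenase, has no mitochondrial gene. All 4 listed members were lower past the threshold with both compounds, against 50.1% of all listed genes with 955 and 52.5% with SNS-032. The medians of all listed genes were -1.03 and -1.07. SDHA (6389), the flavin subunit, had log2 fold changes in the authors' deposited table of -1.45 with 955 and -1.29 with SNS-032. SDHB (6390), the iron-sulphur subunit, had -1.69 and -1.52. Both lay less than 1 below those medians with either compound. SDHAF2 (54949), which helps attach the flavin to SDHA, had -2.03 and -1.61. Centred on the other listed genes, it lay at -0.997 with 955 and -0.54 with SNS-032 (adjusted p 0.0543), under the threshold. SDHAF1 (644096), an assembly factor for the iron-sulphur subunit, had -2.31 and -3.5 in the same table, or 0.202 and 0.0886 of the DMSO level. It was also the only member past the threshold with 955 at 1 h, at -1.49 (implied standard error 0.39, FDR 0.0251), where 7.71% of all listed genes were lower. Its average level was 2.10 log2 CPM, the lowest of the lower members.

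Complex III passes electrons from ubiquinol to cytochrome c, and its listed nuclear genes went in opposite directions. UQCRFS1 (7386), the Rieske iron-sulphur subunit, fell in the authors' deposited table, with -2.32 for 955 and -3.52 for SNS-032, to 0.201 and 0.0874 of the DMSO level. The small subunit UQCR11 (10975) rose by 1.35 and 1.59 in the authors' deposited table, 2.55-fold and 3.01-fold, and UQCRQ (27089) rose by 1.07 and 1.34. UQCRB, another small subunit, had 0.83 and 1.16. Centred on the mitochondrial messages, UQCR11 and UQCRQ lay below 0 as well, at -0.72 and -1.0 with 955 and -0.76 and -1.01 with SNS-032.

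Complex IV, cytochrome c oxidase, passes electrons to oxygen. Its 6 listed nuclear subunits were all above 0 at 6 h with both compounds under the authors' scaling, 4 past the threshold with 955 and 6 with SNS-032, against 35.2% and 37.8% of all listed genes. Its 3 listed assembly factors were all below 0, 2 past the threshold with 955 and 1 with SNS-032, against 50.1% and 52.5%. COX6B2 (125965), known as the testis isoform of COX6B, rose in the authors' deposited table by 2.36 with 955 and 3.22 with SNS-032, with implied standard errors of 0.61 and 0.62 and an average level of 0.20 log2 CPM. COX6C (1345) rose by 1.34 and 1.61, and lay at -0.73 with both compounds when centred on the mitochondrial messages. COX4I1, COX6A1, COX7C and COX8A had values of 1.17, 0.77, 0.84 and 1.03 in the authors' deposited table with 955 and 1.32, 1.11, 1.13 and 1.25 with SNS-032. At 1 h, COX4I1 at 0.45 and COX8A at 0.42 had an FDR under 0.05 (0.0187 and 0.0291) without reaching the fold-change bound.

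The assembly factors of complex IV were lower by less. COX10 (1352) and COX15 (1355), enzymes that make the haem of the oxidase, had values of -1.10 and -1.0 in the authors' deposited table with 955, past the threshold, and -0.41 (FDR 0.192) and -0.71 with SNS-032. Centred on the other listed genes, COX10 with 955 lay at -0.075 (adjusted p 0.786) and COX15 at 0.026 (0.898), and both calls were lost. COX14 (84987), which acts on newly made COX1, had -0.86 with 955 and fell by 1.17 with SNS-032 in the same table, a call also lost on that centring (-0.096, adjusted p 0.784).

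The listed nuclear genes of complex V also went in both directions. The small membrane subunits ATP5ME (521), ATP5MF and ATP5MG (10632) had values of 1.06, 0.85 and 0.97 in the authors' deposited table with 955 and 1.26, 1.14 and 1.23 with SNS-032. Centred on the mitochondrial messages, ATP5ME lay at -1.01 and -1.08 and ATP5MG at -1.12 with SNS-032. ATP5F1A (498), the alpha subunit of the catalytic head, fell, with log2 fold changes of -1.33 and -1.54 in the authors' deposited table and implied standard errors of 0.38. ATP5MJ (9556), another small membrane protein, had -1.36 and -1.31, both past the threshold. Centred on the other listed genes, ATP5F1A lay at -0.30 with 955 (adjusted p 0.521) and -0.47 with SNS-032 (0.304), and ATP5MJ at -0.33 (0.146) and -0.24 (0.299), so that all 4 calls were lost. ATP5PO, in the peripheral stalk, had -1.24 and -0.94.

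All 17 nuclear members above 0 at 6 h encode subunits, whereas the 25 below 0 were 17 subunits and the 8 listed assembly factors, under the authors' scaling. The assembly factors had median log2 fold changes of -1.18 with 955 and -1.39 with SNS-032, and 7 and 6 of the 8 were lower past the threshold, against 50.1% and 52.5% of all listed genes, whose medians were -1.03 and -1.07. The subunits alone had medians of -0.10 and 0.06.

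Set against the mitochondrial genes of the same complex, the listed nuclear genes had the lower median in every comparison and every complex that has both. The difference of medians, nuclear minus mitochondrial, was -3.43 with 955 at 6 h and -3.71 with SNS-032 in complex I. It was -1.39 and -1.34 in complex III, where the mitochondrial side is CYTB alone. In complex IV it was -1.22 and -1.17, and in complex V -2.15 at 6 h with both compounds. Over all complexes it was -3.13 and -3.34, and -2.18 and -2.20 over members with an average log2 CPM of at least 4. Listed genes that are not members stood at a like distance, 3.10 and 3.42 below the mitochondrial median. The distance does not depend on the scaling, and neither group of genes is a set of independent replicates, so no test was made. It does depend on the list, which lacks 67 of the 109 nuclear genes and holds only genes that changed somewhere. The distance for all nuclear genes of the chain is therefore not known.

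COX6B2 was the only nuclear member to reach the lowest mitochondrial value at 6 h, with both compounds. At 1 h the distances were smaller, -0.61 in complex I, -0.40 in complex III, -0.31 in complex IV and -0.30 in complex V, and -0.47 over all. The nuclear members then had a median of 0.20 and ran from -1.49 to 0.53 in the authors' deposited table, and 3 of the 42 reached the lowest mitochondrial value.

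**Figure D3:**
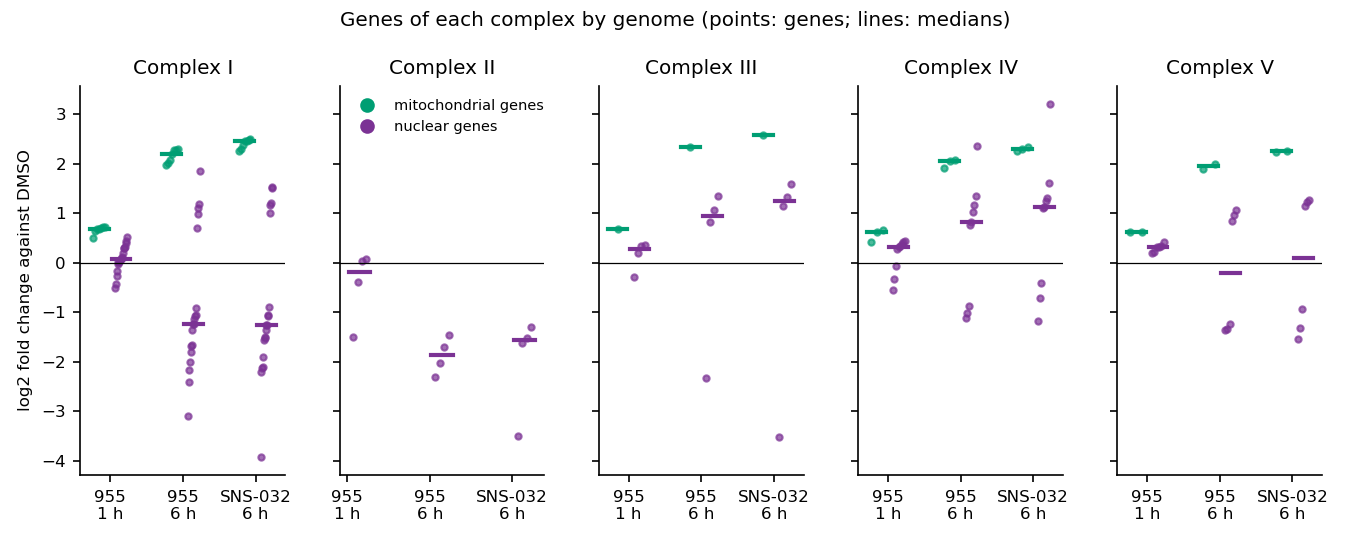
Log2 fold change against DMSO (vertical axis) of the mitochondrial (green) and nuclear (purple) genes of each complex in the 3 comparisons (horizontal axis). Points are genes and horizontal lines are their medians. The median of the listed nuclear genes lies below the mitochondrial one in each of the 4 complexes that have both, whatever the scaling. Nuclear genes outside the list are not shown, and complex II has nuclear genes only.

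The compounds were compared gene by gene at 6 h with an approximate contrast, the difference of both log2 fold changes tested with a t distribution and Benjamini-Hochberg adjustment over the 5759 listed genes. At their different doses, 2 members differed past the threshold (adjusted p under 0.05 and an absolute difference of at least 1), 1 in each direction, against 0.851% of all listed genes for a higher and 0.26% for a lower value with 955. UQCRFS1 was higher with 955 by 1.20 (95% interval 0.84 to 1.56, adjusted p 0.000358), having fallen less. NDUFS4 was lower with 955 by 1.05, that is a difference of -1.05 (95% interval -1.64 to -0.46, adjusted p 0.0479). The call for NDUFS4 was lost with the larger of both implied standard errors, and also when the shared DMSO samples were left out of account.

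SDHAF1 had a difference of similar size, 1.19, with a wide interval of 0.32 to 2.06 and an adjusted p of 0.156. NDUFAF4 had 0.84, with an interval of -0.17 to 1.85. All 13 mitochondrial messages had lower values with 955 than with SNS-032, by differences of -0.37 to -0.17, of which 0 passed after adjustment and 3 had an unadjusted p under 0.05. Since the 13 share long precursor RNAs, the samples and the scaling, their common sign is not 13 separate observations. For COX1, the message with the narrowest interval, the difference was -0.27 (95% interval -0.47 to -0.08, adjusted p 0.149). Among the 17 nuclear members above 0, 16 had a higher value with SNS-032 and NDUFA3 a lower one, and none of these differences passed. Of the 17, 7 were past the threshold with SNS-032 only and 0 with 955 only, so the lean to SNS-032 is partly built into the list. Of all listed genes, 2864 had a higher and 2895 a lower value with 955 than with SNS-032. The 25 below 0 split into 13 with a higher and 12 with a lower value with SNS-032.

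**Figure D4:**
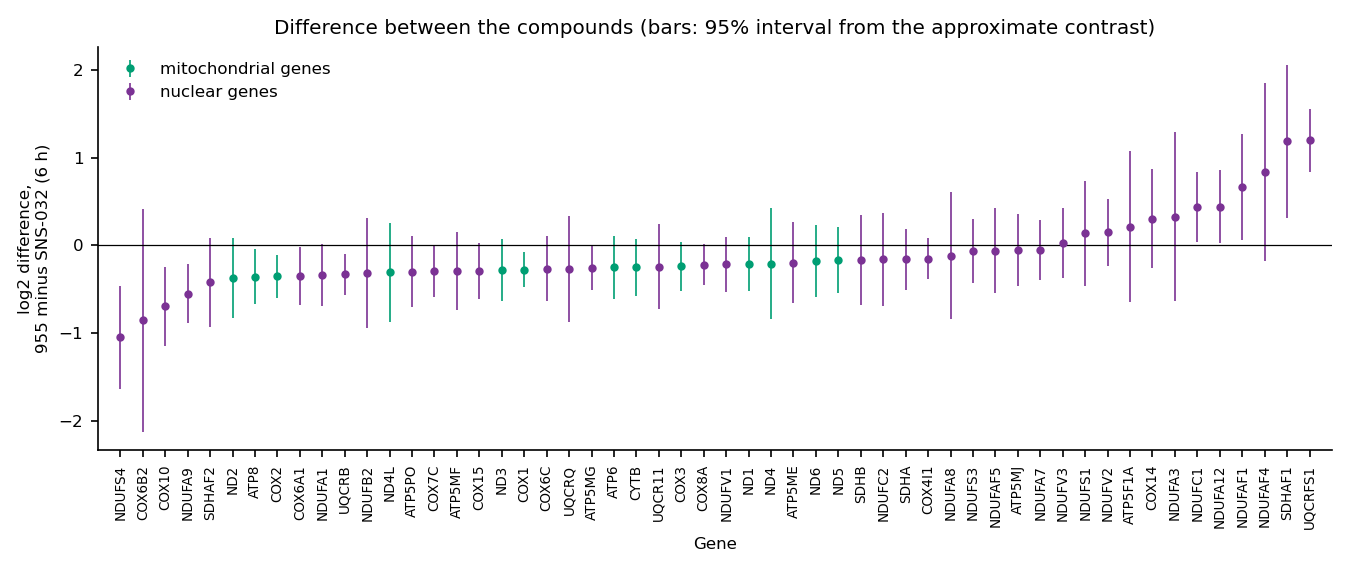
Log2 difference between 955 at 0.1 µM and SNS-032 at 1 µM after 6 h (vertical axis) for the members described here (horizontal axis), ordered by its size. Bars are 95% intervals of the approximate contrast, with mitochondrial genes in green and nuclear genes in purple. NDUFS4 at -1.05 and UQCRFS1 at 1.20 lie at the ends, and the mitochondrial genes lie between -0.37 and -0.17.

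Between 1 h and 6 h of 955, the same approximate contrast called 35 of the 55 members, 16 higher and 19 lower at 6 h. Among all listed genes 27% were higher and 35.6% lower (62.7% in either direction), so the members together were near the background. The higher ones were the 13 mitochondrial messages, whose difference ran from 1.29 (ATP8) to 1.66 (CYTB), with NDUFA3 at 1.33, UQCR11 at 1.01 and COX6B2 at 2.69. The lower ones were 11 members of complex I, among them NDUFAF4, NDUFA9, NDUFC1, NDUFS3, NDUFS4 and NDUFV2, 3 of complex II (SDHA, SDHB and SDHAF2), UQCRFS1, COX14 and 3 of complex V (ATP5F1A, ATP5MJ and ATP5PO). Among the members, NDUFS4 had the largest drop, -2.73, from 0.31 at 1 h to -2.41 at 6 h. SDHAF1, already low at 1 h, had a further difference of -0.82 with an adjusted p of 0.0596. The directions are those of the authors' scaling, and the mitochondrial messages have none when both comparisons are centred on them.

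The nuclear members above 0 were mostly short genes. Their median coding length was 264 bases and their median gene span 6902 bases in GENCODE 29, against 747 and 20257 bases for the members below 0. A coding length of at most 600 bases was found in 16 of 17 members above 0 and 11 of 25 below. NDUFV1, with 1392 coding bases, was the exception among the former. COX14 (171), ATP5MJ (174) and NDUFC1 (228) were the shortest among the latter.

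Across the 42 genes, Spearman's rho between log2 fold change and coding length was -0.52 with 955 and -0.49 with SNS-032, and with gene span -0.42 and -0.37. For the 34 subunits alone it was -0.59 and -0.58 with coding length and -0.60 and -0.57 with span. The other 5205 listed nuclear protein-coding genes with a model had values of 0.15 and 0.18 with coding length, and 0.11 and 0.15 with span, so the sign was not that of the list at large. There the genes above 0 had a longer median coding length than those below, 1515 against 1242 bases. These are descriptions across genes, which share samples and control, and the members' lengths follow from which subunits were listed.

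**Figure D5:**
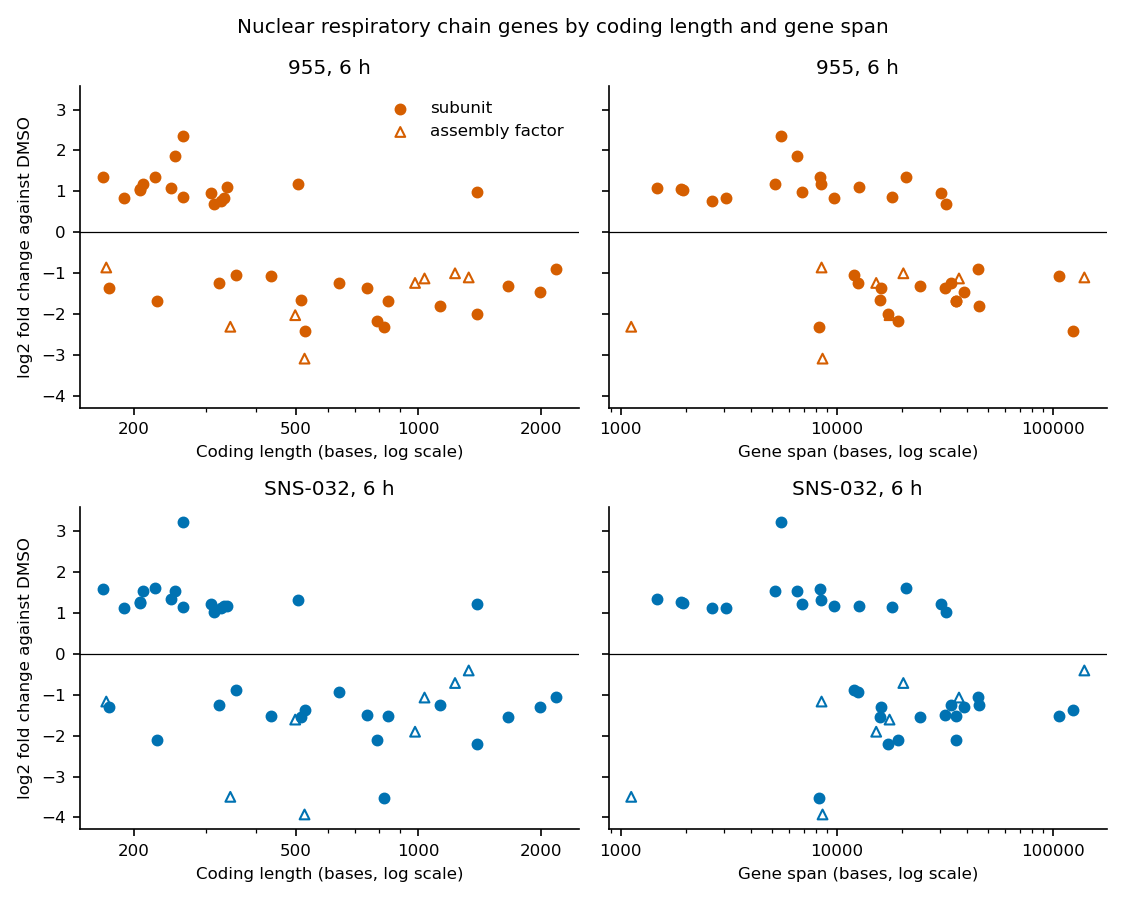
Log2 fold change against DMSO (vertical axes) of the 42 nuclear members by coding length and by gene span in bases (horizontal log axes), for 955 (orange) and SNS-032 (blue) at 6 h. Filled circles are subunits and open triangles are assembly factors. Members above 0 on the authors' scaling lie mostly at coding lengths under 600 bases, with NDUFV1 at 1392 as the exception; centred on the mitochondrial messages, all but COX6B2 would lie below 0, in the same order.

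Promoters of nuclear respiratory genes are known for sites of NRF1, of ETS-family factors such as GABPA, and of YY1. RefSeq promoter windows of 250 bases before to 50 after the start (GRCh38.p14) were at hand for 37 of the 42 members, and were searched on both strands for the letters of NRF1 (GCGCA and GCGC with any 1 base between them), ETS (ACTTCCGG) and YY1 (AAGATGGCG). At least 1 of them was present in 54.1% of members, against 35.8% of the rule's nuclear genes that are not listed (53 of 67 had a window), 23.7% of listed protein-coding genes, 16% of all protein-coding genes and 11.5% of all promoters in the table. NRF1 letters were in 29.7% of members (6.28% of all promoters), ETS letters in 18.9% (4.44%) and YY1 letters in 13.5% (1.85%). By direction at 6 h, the NRF1 letters were in 3 of 14 members above 0 and 8 of 23 below, the ETS letters in 3 and 4, and the YY1 letters in 1 and 4. The letters thus occurred on both sides, and a match is a description of the sequence and not of binding.

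The 150 bases before the start are shown for 4 members with NRF1 letters, a pair above 0 (UQCR11 and NDUFA3) and a pair below (UQCRFS1 and ATP5MJ), because UQCR11 and UQCRFS1 belong to the same complex and moved apart. Capitals mark the matches of the searched letters on either strand, and each sequence reads along the gene. In GRCh38.p14 they lie at chr19:1605463-1605612 (minus strand, UQCR11), chr19:54102705-54102854 (plus, NDUFA3), chr19:29213152-29213301 (minus, UQCRFS1) and chr14:103921530-103921679 (minus, ATP5MJ).
UQCR11: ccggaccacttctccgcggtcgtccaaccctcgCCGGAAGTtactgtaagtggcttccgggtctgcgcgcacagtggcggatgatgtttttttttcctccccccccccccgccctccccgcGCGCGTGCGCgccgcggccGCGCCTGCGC
NDUFA3: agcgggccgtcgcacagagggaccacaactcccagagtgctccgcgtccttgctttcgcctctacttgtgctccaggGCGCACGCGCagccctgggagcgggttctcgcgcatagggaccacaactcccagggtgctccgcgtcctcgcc
UQCRFS1: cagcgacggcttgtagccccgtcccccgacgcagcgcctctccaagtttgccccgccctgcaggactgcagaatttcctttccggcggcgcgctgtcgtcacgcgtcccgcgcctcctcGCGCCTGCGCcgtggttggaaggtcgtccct
ATP5MJ: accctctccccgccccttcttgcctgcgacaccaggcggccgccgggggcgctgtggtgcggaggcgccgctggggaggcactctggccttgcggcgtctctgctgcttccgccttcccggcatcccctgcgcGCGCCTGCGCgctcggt

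Genes that build, supply or regulate the chain outside the symbol selection were read from lists. Counts past the threshold in these lists stand against 35.2% higher and 50.1% lower among all listed genes with 955 at 6 h. With SNS-032 these shares were 37.8% and 52.5%, and with 955 at 1 h they were 0.729% and 7.71%. Of 41 further assembly factors, 22 were listed, 0 of them higher and 19 lower with 955, and 1 higher and 20 lower with SNS-032, with medians of -1.85 and -2.10. TMEM70, which assists ATP synthase assembly, had -1.22 at 1 h and -3.79 and -3.97 at 6 h in the authors' deposited table, and TACO1, which promotes translation of COX1, had -3.51 and -3.62 at 6 h. TMEM177 was also past the threshold at 1 h, at -1.29. CYC1, the nuclear cytochrome of complex III, had -1.49 and -1.44 in the authors' deposited table, and STMP1 had 0.91 and 1.06. They were the 2 listed of 6 further complex members found in RefSeq.

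The machinery that reads and maintains the mitochondrial chromosome gave 8 listed of 16 genes, 2 higher and 4 lower with 955, and 2 higher and 5 lower with SNS-032. POLG, the mitochondrial DNA polymerase, rose by 2.13 and 2.22 in the authors' deposited table, and TWNK, the helicase of the same replication machinery, had -2.08 and -2.61. At 1 h TWNK and TEFM, the transcription elongation factor, were at -1.03 and -1.06, both past the threshold. POLRMT and TFAM are not analysed here.

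Of 25 genes of mitochondrial RNA processing, stability and decay found in RefSeq, 12 were listed, 0 higher and 11 lower with either compound. Their medians were -1.65 and -1.53. SLIRP, part of a complex that stabilises mitochondrial messages, had -3.56 and -4.18 in the authors' deposited table, and RPUSD3, a pseudouridine synthase, had -2.38 and -2.27. Among all listed genes, 50.1% were lower with 955 and 52.5% with SNS-032, and these directions are those of the authors' scaling. A link between these genes and the values of the mitochondrial messages was not tested.

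Of 16 nuclear regulators of respiratory genes, 8 were listed, 1 higher and 7 lower with each compound. MYC had -3.07 and -3.53 and GABPB1, a partner of GABPA, -2.75 and -2.38 in the authors' deposited table. NRF1 was at -1.10 at 1 h (FDR 0.000796) and at -2.16 and -1.96 at 6 h. In coenzyme Q synthesis 9 of 13 genes were listed, 0 higher and 9 lower with 955 and 0 and 8 with SNS-032, with the largest falls with 955 in COQ3 at -2.19 (-2.01 with SNS-032) and COQ2 at -1.88 (-2.03) in the authors' deposited table.

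The citric acid cycle had 7 listed of 17, 1 higher and 5 lower with each compound, with FH, fumarase, at -2.55 and -2.43 and PDHB, of pyruvate dehydrogenase, at -2.20 and -2.19 in the authors' deposited table. Mitochondrial protein import had 16 listed of 30, 1 higher and 12 lower with 955 and 1 and 15 with SNS-032, with TIMM23 at -2.96 and -2.56 and CHCHD4 at -2.94 and -3.34. These list counts stand against 35.2% higher and 50.1% lower among all listed genes with 955, and 37.8% and 52.5% with SNS-032.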

How the data were processed

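RNA sequencing of 12 MOLT4 samples in 4 groups of 3 was deposited as a table of the authors' own comparisons, with no values per sample, so depth is unknown and no interval that needs it is given. Per the labels' protocols, RNA was purified on columns and libraries were made with an mRNA kit. The submitters' processing notes name hg38 as build and DESeq2. The aligner, counter, use of strand, annotation and filters are not given in the sources used here.

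Per the file headers, the table holds for 5759 genes and 3 comparisons with DMSO a log fold change and an average log CPM, both read here as log2 values because no gene's largest change lies below 1, an F statistic, treated as a score of the authors' fit, and a p-value with its FDR. The average level is over all samples. No direct comparison of treated groups was used from the table.

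The planned tests named this table's FDR, and the threshold was an FDR below 0.05 with a log2 fold change of 1 or more in either direction. From F and p, an implied standard error and the denominator degrees of freedom of each gene were solved (8.56 to 23.3 for the members, with ATP5F1A and ND4 at the low end). For contrasts of treated groups, the difference of log2 fold changes was divided by the root mean square of both implied standard errors and referred to a t distribution, with Benjamini-Hochberg adjustment over the 5759 genes. On simulated data with 200 of 5759 genes changed by 2 (log2), 955 against SNS-032, this recovered 87.5% of them, as did a direct test, with 0% false calls. Recovery of changes as small as the differences of UQCRFS1 (1.20) and NDUFS4 (-1.05) was not tested. Whether an implied standard error taken from the deposited F holds for the authors' own fit was not tested either.

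Gene IDs were matched to RefSeq (GRCh38.p14), which names 5727 of 5759 IDs and gave types, positions and promoter windows. Coding length and gene span came from GENCODE 29. Of the 42 nuclear members, 20 have a pseudogene of the same name in RefSeq and 28 share exon bases with another gene, 16 of them on the opposite strand. Reads of such genes may have been split or shared in counting, so their values are less certain.

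The members and gene lists were chosen with earlier results of these data known. Named were all mitochondrial members, per complex and compound at 6 h up to 2 of the largest rises and 2 of the largest falls past the threshold, each member past it at 1 h or in a contrast, and of each further list the 2 largest changes with 955 at 6 h and those past the threshold at 1 h. Other named members were added to account for the rest, except an item that is not reported here. Alternatives changed the fold bound, the FDR, the scaling, a filter on average level (at least 4 log2 CPM), the members and the standard error. Python 3.11.15 with numpy 2.4.6, pandas 2.3.3, scipy 1.17.1 and matplotlib 3.10.9 was used.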

Additional observations from a re-analysis of the deposited data

Results flagged for a closer look

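The difference between the compounds at 6 h, at doses of 0.1 µM for 955 and 1 µM for SNS-032, passed the threshold for 2 members. UQCRFS1 differed by 1.20 and NDUFS4 by -1.05 (log2, 955 minus SNS-032), from log2 fold changes of -2.32 against -3.52 and of -2.41 against -1.36. The adjusted p was 0.000358 and 0.0479, by the approximate contrast with Benjamini-Hochberg adjustment over the listed genes.

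With 955, 35 of the 55 members had a log2 fold change at 6 h that differed from that at 1 h past the threshold, 16 of them higher and 19 lower. Among all listed genes, 62.7% did, 27% higher and 35.6% lower, so these counts are near the background and not particular to the members.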

How the results depend on the processing

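No paired analysis was possible because the table holds no values per sample, and for the same reason neither a replicate block nor leaving out a replicate was run. Of the summary results, 57 values under an alternative stayed within the range set for the result and 38 moved. For the named genes, values were counted per gene, comparison and alternative. Of these values, 127 kept direction and call, 32 lost the call and 14 reversed. The mitochondrial count stayed at 13 for both compounds at 6 h with a bound of 1.5, an FDR under 0.01, a filter on level and centring on other listed genes, and at 1 h it went from 0 to 8 without a fold bound.

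For nuclear members with 955 at 1 h, the count of 1 became 3 without a fold bound (2 higher), 5 (all lower) when centred on the mitochondrial messages, and 0 with a bound of 1.5, an FDR under 0.01, a filter on average level or subunits only. With 955 at 6 h, a bound of 1.5 left 13 of 33 (2 higher, 11 lower), no bound gave 16 higher, centring on other listed genes gave 17 higher and 5 lower, centring on mitochondrial messages 0 higher, and the filter on level 14 lower. With SNS-032, the bound of 1.5 left 18 of 38 (5 higher, 13 lower), centring on other listed genes 23 (6 lower), centring on mitochondrial messages 0 higher and 37 lower, and the filter on level 13 lower.

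The distance between nuclear and mitochondrial medians at 6 h was -2.18 (955) and -2.29 (SNS-032) for subunits only, -2.59 and -2.79 by means, and -2.18 and -2.20 with the filter on level. Centred on mitochondrial messages, values turned below 0 for NDUFA3 (-0.21 and, with SNS-032, -0.81), NDUFA1 (-0.89 and -0.82), UQCR11 (-0.72 and -0.76), UQCRQ (-1.0 and -1.01), COX6C (-0.73 and -0.73), ATP5ME (-1.01 and -1.08) and, with SNS-032, ATP5MG (-1.12), by construction of the shift. COX15 with 955 became 0.026 when centred on other listed genes.

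Between the compounds, 1 member in place of 2 passed with the larger of both standard errors and 1 when the shared DMSO samples were left out of account. Between 6 h and 1 h, 53 in place of 35 passed without a fold bound.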
